A study of Mus musculus with 17 samples.

Results

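Diras1 and Diras2 encode the mouse DIRAS proteins, small GTPases of the Ras family, and the pair was selected because Diras2 rises from near zero when the fusion protein PRCC-TFE3 is expressed in the kidney. The values that chose them are therefore their levels in fusion-expressing against Cre(-) kidneys, which are given below as a description, with no test. They are 2 of 35971 genes and are represented by 3 of 119353 transcripts in the tables, 1 for Diras2 and 2 for Diras1. Polyadenylated RNA was sequenced from whole kidneys of 17 mice in 5 groups, and the study's methods put the mice at 8 months of age. Each mouse carried the lsl-PRCC-TFE3 KI allele, a loxP-stop cassette in Rosa26 that releases the fusion after Cre acts, and Cre came from the KSP (Cadherin 16) promoter, which is active in kidney tubule epithelium. The 4 Cre(-) mice lacked Cre, and replicates 1 and 2 of them also carried HIF1af/f alleles. The 3 PRCC-TFE3KI mice (KI) were KSP-Cre(+) with no floxed HIF allele, the 4 HIF1a KO mice were KSP-Cre(+) with HIF1af/f, the 3 HIF2a KO mice were KSP-Cre(+) with HIF2af/f, and the 3 DKO mice were KSP-Cre(+) with both. Whole kidneys hold many cells in which this Cre does not act, so fewer cells of a type and less RNA per cell cannot be told apart.

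Ras-type GTPases switch between a GTP-bound and a GDP-bound state, and exchange factors and GTPase-activating proteins set the balance. DIRAS proteins form a branch of the family with weak GTP hydrolysis, are anchored to membranes through a C-terminal CAAX motif, and are best known from the brain. TFE3, the transcription factor in the fusion, drives genes of lysosomes and of the Rag GTPase and folliculin system through E-box-like DNA motifs, and HIF1α and HIF2α are the oxygen-regulated factors whose genes were floxed here.

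The sequences of both genes are shown first because they set what the reads and the start sites can tell. Diras2 (ENSMUSG00000047842.7) lies on the minus strand of chromosome 13, at 52504380 to 52531279 of GRCm38, and its transcript has 2 exons with the whole coding part, 597 bases, in exon 2. Diras1 (ENSMUSG00000043670.4) lies on the minus strand of chromosome 10, at 81019589 to 81025662, and the coding part of its main transcript, 594 bases, is likewise in exon 2. The aligned coding parts were identical at 465 of 594 bases (78.3%), and their longest identical run was 30 bases. The most similar stretch of 75 bases, the read length, covers coding bases 169 to 243 of each gene and is shown 5′ to 3′ with the 4 bases that differ in capitals.
Diras1, chr10:81022173-81022247, minus strand: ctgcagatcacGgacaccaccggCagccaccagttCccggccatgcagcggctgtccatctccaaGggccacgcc
Diras2, chr13:52508027-52508101, minus strand: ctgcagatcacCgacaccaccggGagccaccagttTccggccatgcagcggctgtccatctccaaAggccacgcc
Of the 4712 distinct 75-base words in the Diras2 transcript, 0 occurred in any other annotated gene on either strand, and the same held for 0 of the 2959 words of Diras1. Reads from either gene therefore had no identical counterpart among the annotated transcripts.

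The start sites were searched for the letters that TFE3-type and HIF factors are known to favor, since Diras2 came on with a TFE3 fusion and was then compared across HIF genotypes. The windows were RefSeq promoters (GRCm38.p6), 250 bases before to 50 bases after each start, and both members matched an entry among 32851 windows. On either strand, CACGTG (an E-box) occurred in 7.15% of all windows, CATGTG in 14.2%, ACGTG (which also lies within CACGTG) in 19.6% and GCGTG in 32.4%. The Diras1 window held CACGTG once, at chr10:81025564-81025569, the overlapping ACGTG on both strands, and GCGTG once. The Diras2 window held GCGTG once, at chr13:52531029-52531033, and none of the other letters, but the RefSeq start used for it lies 443 bases inside exon 1 of the annotated transcript, so bases before the outer start were not searched. The part of the Diras1 window between the first exons of its transcripts and the bases around the Diras2 match are printed with the matched letters in capitals.
Diras1, chr10:81025410-81025580, minus strand: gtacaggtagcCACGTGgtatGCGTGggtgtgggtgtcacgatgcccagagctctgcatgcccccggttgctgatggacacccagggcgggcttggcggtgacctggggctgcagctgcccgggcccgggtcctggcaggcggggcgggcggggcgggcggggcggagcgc
Diras2, chr13:52531019-52531043, minus strand: aagtcttattGCGTGgtaagcagtg
These matches describe the letters only, and binding was not measured in these samples.

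Diras2 was nearly silent in Cre(-) kidneys and among the more abundant transcripts in every fusion-expressing kidney. The reads assigned to it were 3, 3, 4 and 1 in the 4 Cre(-) libraries and 14225, 17639 and 15803 in the 3 KI libraries. They were 5522, 10267, 8072 and 12966 in HIF1a KO, 10995, 12581 and 13244 in HIF2a KO, and 10720, 8244 and 9026 in DKO. All 13 fusion-expressing libraries were therefore far above all 4 Cre(-) libraries, and the ranges did not come near each other. On the length-scaled TPM measure, which expresses each transcript's abundance relative to all transcripts of its library, KI averaged 286.1 ± 25.1 (SD, n = 3), HIF2a KO 189.3 ± 38.6 (n = 3), DKO 158.4 ± 17.6 (n = 3), HIF1a KO 139.9 ± 33.7 (n = 4) and Cre(-) 0.0408 ± 0.0200 (n = 4). In that order KI stood clear of HIF2a KO, while HIF2a KO, DKO and HIF1a KO overlapped with their neighbors. How many of all genes are separated in this way was not counted. By TPM Diras2 ranked between 376 and 451 of 35971 genes in KI and between 19555 and 20509 in Cre(-). Pooled over libraries, KI had 5202 times the CPM (reads scaled to library size with TMM factors) of Cre(-), with a 95% counting interval of 2907 to 10421 that is wide because Cre(-) held 11 reads in all. The same ratio was 2631 in HIF1a KO, 3268 in HIF2a KO and 2723 in DKO, and these share the Cre(-) libraries. The fitted log2 fold change of KI against Cre(-) was 12.29 ± 0.28 (SE), the third-highest of the 17011 genes tested.

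**Figure D1:**
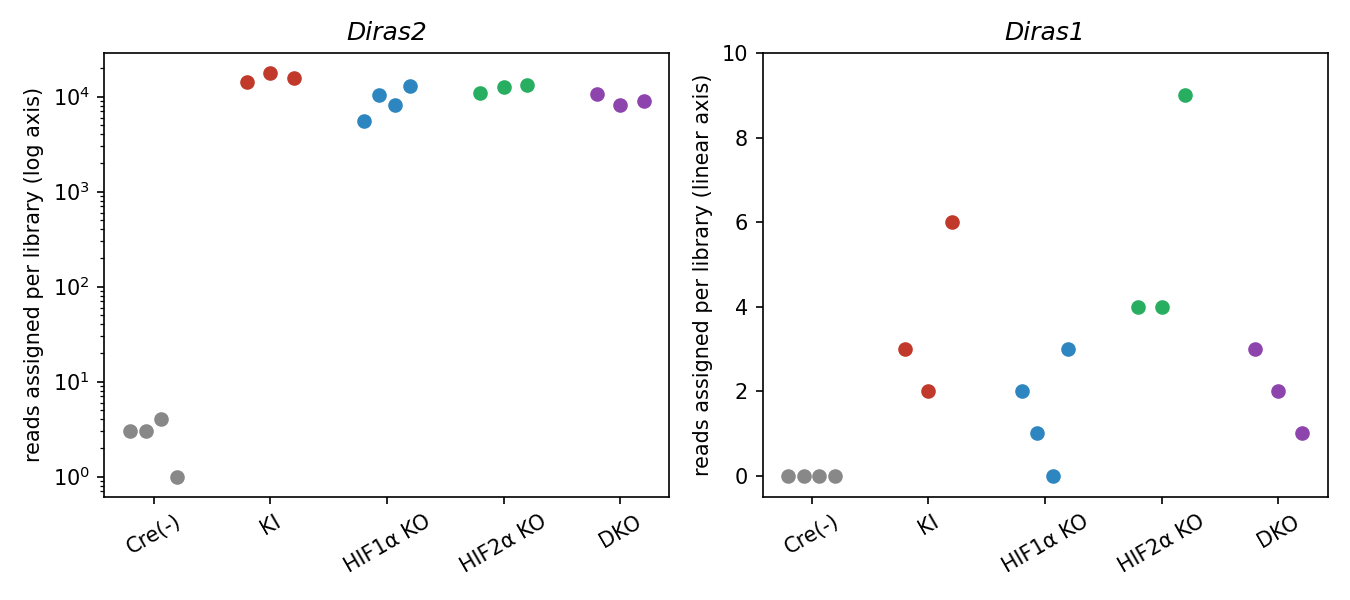
Reads assigned to Diras2 (left, log axis) and Diras1 (right, linear axis) in each of the 17 libraries, by group; each point is a library. Diras2 had 1 to 4 reads in Cre(-) and 5522 to 17639 in the 13 fusion-expressing libraries, and Diras1 never had more than 9.

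The name of the pair, as genes switched on, held for Diras2 and could not be held for Diras1. Diras1 had 0 reads in all 4 Cre(-) libraries, 3, 2 and 6 in KI, 2, 1, 0 and 3 in HIF1a KO, 4, 4 and 9 in HIF2a KO, and 3, 2 and 1 in DKO. It was thus read in 12 of 13 fusion-expressing libraries, at levels close to the floor of detection. A count of 0 allows up to 3 reads, which over the whole Cre(-) group is 0.0467 CPM. Pooled over libraries, Diras1 was at 0.206 CPM in KI (95% counting interval 0.103 to 0.368) and 0.259 in HIF2a KO (0.151 to 0.414), both intervals above that floor. It was at 0.1 in DKO (0.0367 to 0.218) and 0.0735 in HIF1a KO (0.0270 to 0.160), where the intervals reach below the floor. A difference of any group from Cre(-) was not tested for Diras1. By TPM its mean was 0.160 ± 0.062 in KI and 0.173 ± 0.079 in HIF2a KO (n = 3 each). Nearly all of its reads went to the main transcript, and in 2 libraries, KI replicate 2 and HIF2a KO replicate 1, a fraction of a read went to the shorter transcript. In TPM these 2 libraries stood high for their reads. KI replicate 2 was at 0.217 TPM with 2 reads and KI replicate 3 at 0.169 with 6. HIF2a KO replicates 1 and 2, with 4 reads each, were at 0.168 and 0.0975 TPM. Diras1 did not pass the filter on low counts, so 1 of the 2 members entered the tests across genes and its HIF comparisons were not tested. An antisense gene that overlaps Diras1, Gm16099, had 0 reads in all 17 libraries. Over the 13 fusion-expressing libraries, Diras1 and Diras2 CPM, without a log, had Pearson r = 0.48 (two-sided permutation p = 0.0869, adjusted over both measures 0.0869) and Spearman rho = 0.52 (permutation p = 0.0695, adjusted 0.0869). The r was 0.55 without KI replicates 2 and 3, the libraries farthest from the median of Diras2, and at such sparse counts it is not a finding.

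Within the Ras family Diras2 went from one of the lowest transcripts to the highest. Against 33 other family genes and Diras1, compared by TPM, it ranked 32 of 35 in every Cre(-) library and 1 of 35 in all 13 fusion-expressing libraries. It made up 25.8% to 28.8% of the summed TPM of the 35 genes in KI, 17.9% to 23.0% in HIF2a KO, 16.3% to 18.6% in DKO, 12.7% to 18.0% in HIF1a KO, and at most 0.0135% in Cre(-). Its mean KI level of 286.1 TPM compares with 82.5 ± 6.9 for Rras, the highest of the other family genes there, 69.8 ± 7.9 for Rap1b, 62.7 ± 2.1 for Hras and 32.1 ± 2.0 for Nras. The other 33 genes together summed to 430.9 to 501.7 TPM in Cre(-) and 749.6 to 782.1 in KI. Rises were common on the TPM scale. On log2(TPM + 1) with limma, 8843 of all genes were higher and 2458 lower in KI than in Cre(-), with a median change of 0.38.

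**Figure D2:**
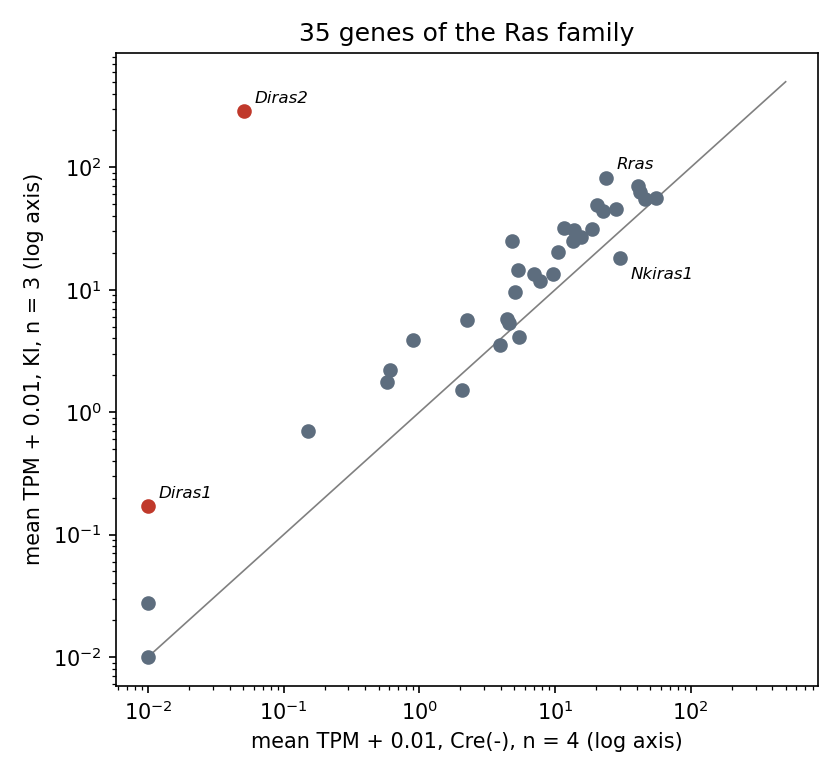
Mean TPM in Cre(-) (horizontal, n = 4) against KI (vertical, n = 3) for Diras1, Diras2 (red) and 33 other Ras-family genes, both log axes with 0.01 added; the line marks equal levels. Diras2 leaves the line by far more than the rest and lies above Rras at 82.5 TPM.

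Other Ras-family genes were tested in the same fit. Of 31 that passed the filter, 16 were higher and 5 lower in KI than in Cre(-) (edgeR, adjusted p under 0.05), and over all genes 31.6% were higher and 29.3% lower (5381 and 4981 genes, which became 8843 and 2458 on log2(TPM + 1) with limma). Their median log2 fold change was 0.42, against 0.03 for all genes. The largest rises were those of Rasl12 (1.99 ± 0.21 SE, adjusted p = 1.01e-06), Rem2 (1.94 ± 0.44, 0.00128), Rap2b (1.65 ± 0.10, 5.32e-09) and Rasl10a (1.52 ± 0.29, 0.000304). The largest falls were those of Nkiras1, an inhibitor of NF-κB signaling (-1.12 ± 0.13, adjusted p = 3.17e-06), Rergl (-0.91 ± 0.34, 0.0283), Rem1 (-0.74 ± 0.24, 0.0146) and Rasd1 (-0.63 ± 0.25, 0.0369). These directions depend on scaling, since on log2(TPM + 1) the median of all genes in this comparison was 0.38 in place of 0.03 and the family count became 23 higher and 1 lower, with Rheb turning from -0.19 to 0.03.

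Diras2 was lower in HIF1a KO and in DKO than in KI, by about the same amount, and the smaller difference in HIF2a KO missed the threshold. The HIF comparisons were not the stated reason for the choice and were tested with edgeR across the 17011 genes. They are not fully independent of it, since the genes were chosen with earlier results of these data known. The comparisons with KI share the KI libraries, which also entered the choice of Diras2 as high under the fusion. Such a choice can favor lower values against KI. Diras2 CPM was 817.7 to 949.9 in KI, 329.9 to 533.1 in HIF1a KO, 474.9 to 670.3 in HIF2a KO and 434.3 to 522.2 in DKO. Every library of each HIF-deleted group lay below every KI library, and the 3 HIF-deleted groups overlapped each other. With so few libraries per group this is a description only, and the share of all genes separated in this way was not counted. Diras2 fell by 50.2% in HIF1a KO against KI (log2 fold change -1.01 ± 0.16 SE, 95% interval -1.35 to -0.67, adjusted p = 0.00502), where 2.57% of all genes were called higher and 2.86% lower. It fell by 47.7% in DKO against KI (-0.93 ± 0.17, interval -1.30 to -0.57, adjusted p = 0.00489), where 6.53% of genes were called higher and 6.19% lower (1111 and 1053, which became 1206 and 520 on log2(TPM + 1)). In HIF2a KO the difference was -0.65 ± 0.17 (interval -1.02 to -0.29), which missed the threshold (adjusted p = 0.0645) in a comparison with 0.741% of genes higher and 0.647% lower (126 and 110, which became 137 and 57 on log2(TPM + 1)). It passed with DESeq2 (adjusted p = 0.00953) and without KI replicate 1 (0.0479), while over the other alternatives the adjusted p ran up to 0.216.

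**Figure D3:**
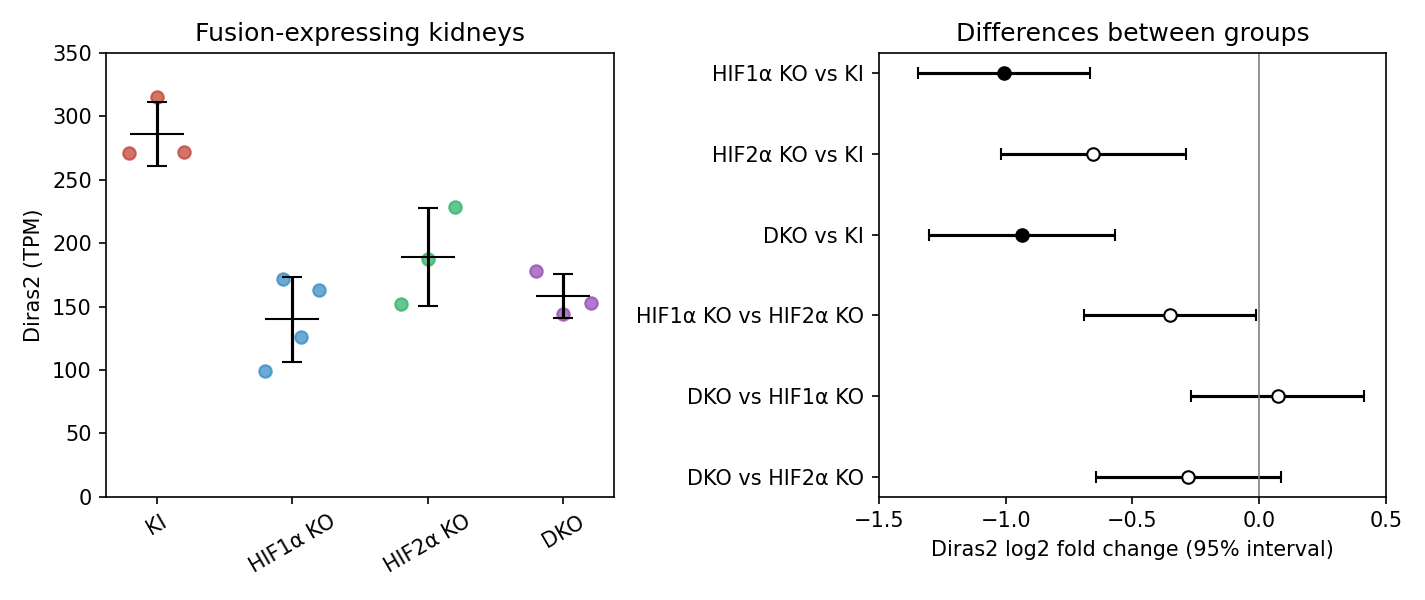
Left, Diras2 in TPM in each fusion-expressing library with the group mean and SD; right, log2 fold change between groups with its 95% interval from the edgeR fit, filled where the adjusted p is under 0.05. KI averaged 286.1 TPM against 139.9 to 189.3 in the HIF-deleted groups, and the filled points are HIF1a KO and DKO against KI.

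Direct comparisons among the HIF-deleted groups did not separate them. HIF1a KO was lower than HIF2a KO by 0.35 on the log2 scale (-0.35 ± 0.16, interval -0.69 to -0.01, edgeR adjusted p = 0.313), where 0.429% of all genes were called. That count rested on single libraries, since without HIF2a KO replicate 2 there were 0 genes higher and 1 lower, without HIF2a KO replicate 1 126 and 67, and with DESeq2 340 and 197. DKO differed from HIF1a KO by 0.07 ± 0.16 (interval -0.27 to 0.41, adjusted p = 0.895, 0.406% of genes called, 15 higher and 54 lower, which became 2 and 4 without DKO replicate 2 and 154 and 264 with DESeq2) and from HIF2a KO by -0.28 ± 0.17 (interval -0.64 to 0.08, adjusted p = 0.890, 0.00588% called). The interaction, which asks whether the effect of HIF1α loss differs with and without HIF2α, was 0.73 ± 0.23 with an unadjusted p of 0.00706 and an edgeR adjusted p of 0.687. That test called 0% of genes, with 1013 of 17011 at an unadjusted p under 0.05 and 31 past the threshold with DESeq2.

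The floxed genes and the tissue markers were read beside these results. Hif1a was 51.3 to 67.5 TPM in HIF1a KO and 58.5 to 81.1 in KI (log2 fold change -0.21 ± 0.13, edgeR adjusted p = 0.372), and Epas1, which encodes HIF2α, was 40.4 to 44.0 in HIF2a KO and 46.7 to 55.1 in KI (-0.33 ± 0.09, adjusted p = 0.0788). In DKO against KI, Hif1a was -0.19 ± 0.14 (0.395) and Epas1 -0.18 ± 0.09 (0.208). In KI against Cre(-), Hif1a was higher (0.88 ± 0.13, 2.47e-05) and Epas1 lower (-0.31 ± 0.09, 0.0059), beside 31.6% and 29.3% of all genes. On log2(TPM + 1) that Epas1 value was 0.14 (limma, adjusted p = 0.197). Counts over whole genes, in tissue with many cells outside the reach of Cre, do not check a deleted exon. All 5 proximal tubule markers were lower in KI than in Cre(-), beside 29.3% of all genes, with a summed level of 156 to 209 TPM against 3078 to 3545. The same sum was 269 to 690 in HIF1a KO, 223 to 605 in HIF2a KO and 387 to 635 in DKO. Of the 5, 3 were higher than in KI in HIF1a KO and in DKO, where 2.57% and 6.53% of all genes were higher. The sum of Umod and Slc12a1, markers of the thick ascending limb, was 1701 to 2394 TPM in Cre(-), 455 to 823 in KI, 1149 to 2164 in HIF1a KO, 1122 to 1921 in HIF2a KO and 1561 to 2473 in DKO. The 8 leukocyte markers summed to 1990 to 2199 TPM in KI and 83.5 to 106 in Cre(-), with 1200 to 1463 in HIF1a KO, 1539 to 1816 in HIF2a KO and 1047 to 1541 in DKO. Against KI, 1 of those 8 was called higher and 1 lower in HIF1a KO, beside 2.57% and 2.86% of all genes, and likewise in DKO, beside 6.53% and 6.19%. Their median log2 fold change against KI was above 0, at 0.26 in HIF1a KO, 0.44 in HIF2a KO and 0.51 in DKO. The sum and the median of these markers thus moved in opposite directions. The part of these shifts in the Diras2 differences was not tested. KI replicate 2 stood apart in the summed level of 8 adipocyte markers, at 3181 TPM against 154.7 and 294.5 in the other KI libraries, and without it and HIF1a KO replicate 1, the lowest HIF1a KO library for Diras2, the Diras2 change was -0.83 ± 0.16 in HIF1a KO (adjusted p = 0.0481) and -0.87 ± 0.16 in DKO (0.0117). The 12 neuron markers summed to 2.68 to 4.60 TPM in Cre(-) and 4.38 to 5.26 in KI, with 3.23 to 5.08 in HIF1a KO, 3.95 to 4.33 in HIF2a KO and 3.39 to 4.29 in DKO. Of 7 that passed the filter, Prph, Syt1 and Tubb3 were higher and Elavl3 and Nefl lower in KI than in Cre(-), beside 31.6% and 29.3% of all genes. None of the 7 was called between the HIF-deleted groups and KI by edgeR. No neuron marker was at 0 in all KI libraries, while Th and Gap43 were at 0 in Cre(-), Snap25, Elavl4 and Dbh in HIF1a KO, Dbh in HIF2a KO and Gap43 in DKO. The part of neuronal RNA in the Diras2 levels was not tested. The 8 adrenal and chromaffin markers summed to 2.52 to 13.4 TPM over the libraries.

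Known TFE3 target genes were set beside Diras2 across the HIF genotypes. Of 10 on the list, 8 were higher and 2 lower in KI than in Cre(-), beside 31.6% and 29.3% of all genes. Gpnmb, a melanosomal and lysosomal glycoprotein, led the rise (0.996 ± 0.532 TPM in Cre(-), 11471 ± 644 in KI). Ppargc1a and Atp6v1h were the lower ones, and Atp6v1h went from -0.42 to 0.12 on log2(TPM + 1), where 8 were higher and 0 lower. Against KI, 5 of 10 were lower in HIF1a KO, 3 in HIF2a KO and 7 in DKO, beside 2.86%, 0.647% and 6.19% of all genes, while Ctsk, a lysosomal protease, was higher in DKO (0.67 ± 0.17, edgeR adjusted p = 0.0182). On log2(TPM + 1) the lower counts were 4, 0 and 5, on log2(TPM + 0.1) 2, 0 and 5, and with DESeq2 size factors 5, 1 and 7. The Diras2 change of -1.01 in HIF1a KO lay between those of Gpnmb (-1.35 ± 0.34, adjusted p = 0.0318) and Rragd, a Rag GTPase (-0.54 ± 0.14, adjusted p = 0.0345). In DKO the Diras2 change of -0.93 again lay between Gpnmb (-1.80 ± 0.37, 0.00824) and Rragd (-0.57 ± 0.15, 0.0240), with Mcoln1, a lysosomal calcium channel, at -0.66 ± 0.10 (0.00229). The median change over the list was -0.31 in HIF1a KO, -0.41 in HIF2a KO and -0.53 in DKO, with the median of all genes at -0.003, -0.007 and -0.003. Taken library by library, the ratio of Diras2 to Rragd TPM was 2.71 to 3.11 in KI, 1.65 to 2.28 in HIF1a KO, 2.20 to 2.58 in HIF2a KO and 2.17 to 2.31 in DKO. The ratio of Diras2 to Gpnmb TPM was 0.0244 to 0.0258 in KI and rose to 0.0352 to 0.0587 in DKO, with HIF1a KO at 0.0255 to 0.0434 and HIF2a KO at 0.0242 to 0.0364. The ratio to Rragd was lower in all HIF-deleted libraries than in all KI libraries, whereas the ratio to Gpnmb was above all KI libraries in DKO and overlapped KI in HIF1a KO and HIF2a KO. These ratios were not tested, and how often other genes separate in this way was not counted.

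**Figure D4:**
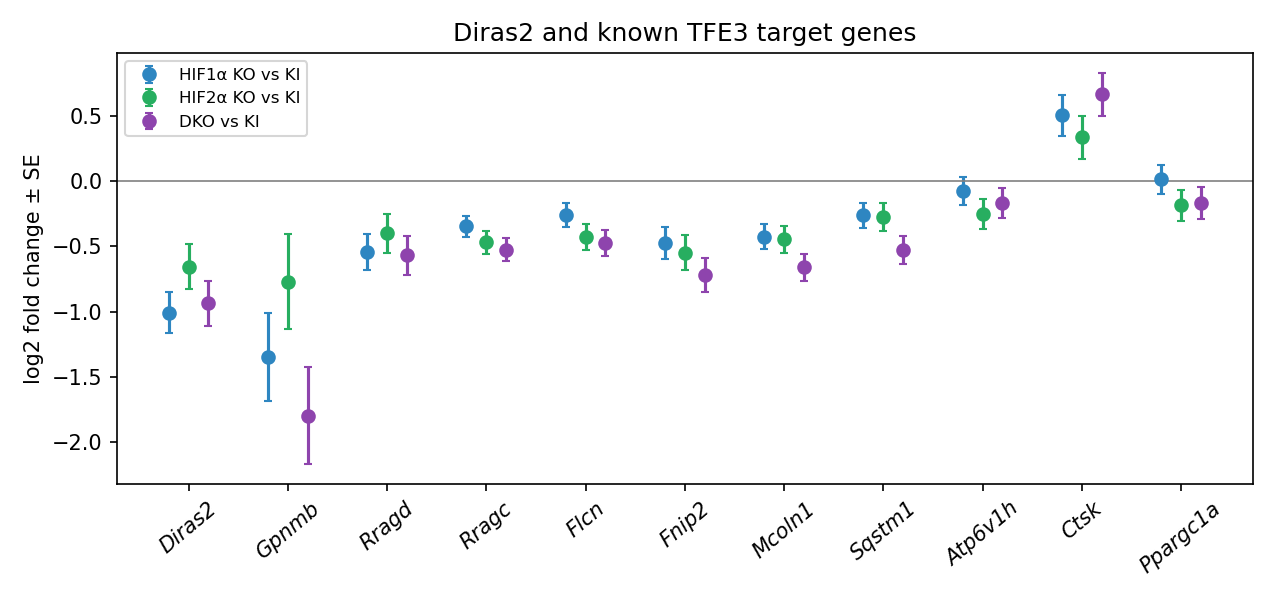
Log2 fold change against KI with its SE for Diras2 and 10 known TFE3 target genes in HIF1a KO, HIF2a KO and DKO (edgeR). Diras2 lies at -1.01, -0.65 and -0.93, between Gpnmb and Rragd in HIF1a KO and in DKO, and Ctsk is above 0 in each.

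Of 11 HIF target genes, 2 were higher and 5 lower in KI than in Cre(-), beside 31.6% and 29.3% of all genes, but 6 were higher and 2 lower on log2(TPM + 1), where Pdk1, a pyruvate dehydrogenase kinase, turned from -0.44 to 0.50 and Vegfa from -0.36 to 0.09 on log2(TPM + 1). Against KI, 1 of the 11 was lower in HIF1a KO, 0 were called in HIF2a KO, and 1 was higher and 4 lower in DKO, which became 0 and 1 on log2(TPM + 1). The all-gene shares by edgeR were 2.57% higher and 2.86% lower in HIF1a KO, 0.741% and 0.647% in HIF2a KO, and 6.53% and 6.19% in DKO.

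The nearest tested genes around Diras2 moved in both directions. Over all genes 31.6% were called higher and 29.3% lower in KI than in Cre(-), so such a mix is common. The nearest tested gene, Syk, a tyrosine kinase of immune cell signaling 51.9 kb away, was higher in KI (log2 fold change 3.33 ± 0.29 SE, edgeR adjusted p = 1.3e-07), at 1.3 ± 0.19 TPM in Cre(-) and 18.2 ± 9.8 in KI. Genes that did not pass the filter on low counts may lie closer. On the same side, Auh, a mitochondrial enzyme gene 303.8 kb away, was lower (-1.48 ± 0.12, adjusted p = 7.26e-08) and Nfil3 at 435.9 kb was 0.50 ± 0.33 (0.197). On the other side the nearest tested gene, Gadd45g, a stress-response gene 655.9 kb away, was higher (1.48 ± 0.24, adjusted p = 7.77e-05), Sema4d was lower (-0.58 ± 0.11, 0.000323) and Secisbp2 was -0.05 ± 0.08 (0.638). In HIF1a KO against KI none of these 6 genes passed the threshold, and their adjusted p ranged from 0.412 to 0.848, and none passed in HIF2a KO (0.116 to 0.738). Few genes passed there at all, 2.57% higher and 2.86% lower in HIF1a KO and 0.741% and 0.647% in HIF2a KO. In DKO against KI, Nfil3 was lower (-1.35 ± 0.36, 0.0242) and Sema4d higher (0.40 ± 0.12, 0.0381), where 6.19% of all genes were lower and 6.53% higher. Around Diras1, Gadd45b (0.71 ± 0.22, adjusted p = 0.0111) and Sgta (0.28 ± 0.06, 0.00128) were higher in KI, while Gng7, the closest tested gene on one side at 4.6 kb, was -0.47 ± 0.24 (0.0978) and Slc39a3, at 2.9 kb on the other, 0.05 ± 0.10 (0.656). Sgta was also lower than in KI in HIF1a KO (-0.25 ± 0.06, adjusted p = 0.0347) and in DKO (-0.25 ± 0.07, 0.027), beside 2.86% and 6.19% of all genes.

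**Figure D5:**
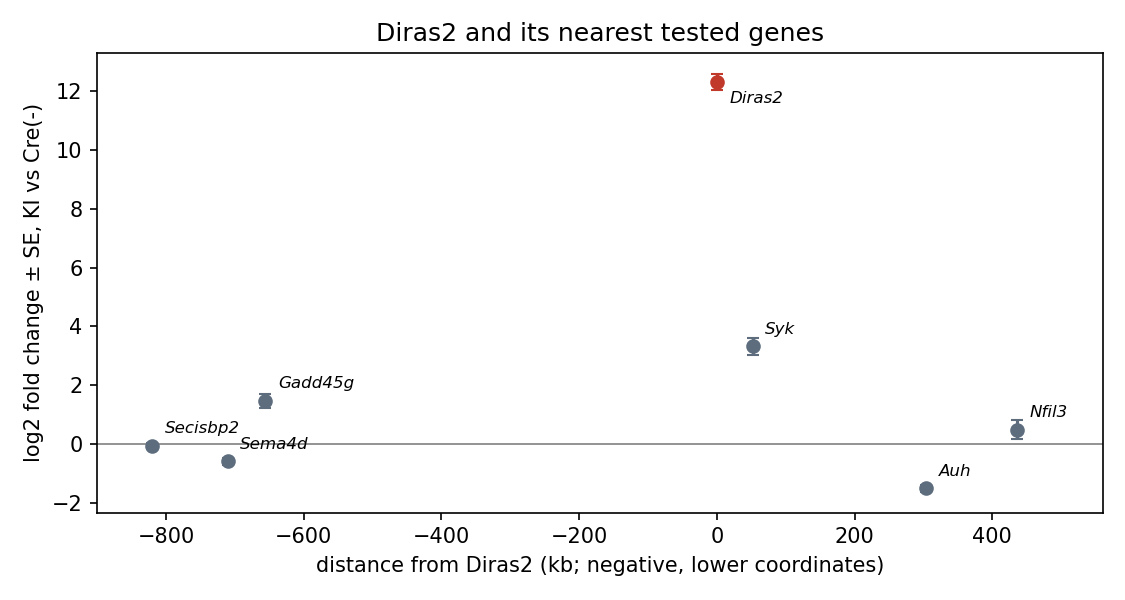
Log2 fold change of KI against Cre(-) with its SE (edgeR) for Diras2 (red) and the 3 nearest tested genes on each side, by distance in kb from Diras2. Diras2 is at 12.29, Syk at 3.33 and Auh at -1.48.

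The genes whose levels followed Diras2 most closely across the 13 fusion-expressing libraries were listed by Pearson r of log2 CPM among 15008 genes with a mean of at least 1 TPM. They were Fam102b (r = 0.976), Vps26c, a subunit of an endosomal recycling complex (0.973), Sde2 (0.968), Prrc2b (0.967) and Ppfibp2 (0.967). Part of such an r is the drop from KI that these genes share, and within groups the r of Fam102b was 0.959 and that of Vps26c 0.867. On log2(TPM + 1) the order changed, with Rragd first at 0.977 and Vps26c at rank 159, so the order of names holds for its scale only. Fam102b went from 7.52 ± 0.85 TPM in Cre(-) to 18.2 ± 1.4 in KI and 11.7 ± 2.3 in HIF1a KO, with a HIF1a KO change of -0.61 ± 0.12 (edgeR adjusted p = 0.0144). Ppfibp2, a liprin family gene, went from 7.58 ± 0.60 to 67.2 ± 5.8 and then to 37.1 ± 10.1 TPM. For Diras1 no such list is given, since its counts were too low.

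Genes that act on Ras-type proteins were examined by role, from lists drawn from general knowledge. Among proteins known to bind or act on DIRAS or Rap proteins, Rap1gds1, which encodes the exchange and chaperone protein SmgGDS, was 18.8 ± 2.9 TPM in Cre(-) and 28.3 ± 2.7 in KI (log2 fold change 0.13 ± 0.08, edgeR adjusted p = 0.199). Rap1gap, a GTPase-activating protein of Rap proteins, was lower (-2.12 ± 0.23, 1.07e-06), at 90.8 ± 14.4 TPM in Cre(-) and 27.5 ± 7.3 in KI, and Rap1gap2 was lower too (-1.27 ± 0.52, 0.0437), a call lost on log2(TPM + 1) (-0.73, limma adjusted p = 0.0931), while Rap1gap stayed lower there (-1.71, 7.82e-06). The 4 genes of this list were 1 higher and 2 lower, beside 31.6% and 29.3% of all genes, which became 2 and 1 on that scale. Rap1gap was higher in DKO than in KI (1.03 ± 0.23, adjusted p = 0.0116), where 6.53% of all genes were higher. Rap1gap was thus lower in KI than in Cre(-) and higher in DKO than in KI, opposite to Diras2. The same held for Umod and Slc12a1 and for 3 of 5 proximal tubule markers, so the pattern is not particular to Rap1gap. How many of all genes show it was not counted.

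Of 7 genes for processing a CAAX motif, 3 were higher and 2 lower in KI than in Cre(-), beside 31.6% and 29.3% of all genes. Fnta and Fntb, the subunits of farnesyltransferase, rose by 0.38 ± 0.07 and 0.46 ± 0.11 on the log2 scale in KI (edgeR adjusted p = 0.000116 and 0.00235), and Pde6d, a chaperone for prenylated proteins, by 0.45 ± 0.09 (0.000703). Zmpste24, a CAAX protease, and Icmt, the methyltransferase that acts after it, were lower at -0.45 ± 0.08 (0.000106) and -0.22 ± 0.08 (0.0276), but on log2(TPM + 1) they were at 0.02 and 0.22, and 5 of the 7 were higher and 0 lower. Pggt1b was -0.01 ± 0.07 (0.95) and Rce1 0.15 ± 0.10 (0.220). In the 3 HIF-deleted groups against KI, 0 of 7 passed the threshold by edgeR or DESeq2, and 1 was higher in DKO on log2(TPM + 1). Over all genes edgeR called 2.57% higher and 2.86% lower in HIF1a KO, 0.741% and 0.647% in HIF2a KO, and 6.53% and 6.19% in DKO.

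The direction in which regulators and effectors of Ras were called depended on scaling. Of 21 exchange factors and GTPase-activating proteins, 9 were higher and 6 lower in KI than in Cre(-), beside 31.6% and 29.3% of all genes, and 13 were higher and 1 lower on log2(TPM + 1). Rasal3 (1.75 ± 0.48, edgeR adjusted p = 0.00485), Rasgrf2 (1.72 ± 0.21, 3.12e-06), Rasa4 (1.39 ± 0.16, 1.89e-06) and Rasa3 (1.29 ± 0.17, 9.79e-06) led the rise. Rasgrp1 (-1.51 ± 0.46, 0.00972), Rasgrp2 (-0.90 ± 0.29, 0.0134) and Spred2 (-0.47 ± 0.11, 0.00136) were among those that fell. In the RAF-MEK-ERK core of 10, Mapk3, which encodes ERK1, was higher (0.70 ± 0.09, adjusted p = 4.62e-06), and Ksr2 (-3.20 ± 0.24, 2.80e-08), Braf (-0.40 ± 0.09, 0.00109) and Araf (-0.31 ± 0.06, 0.000529) were lower. The core thus had 2 higher and 3 lower, beside 31.6% and 29.3% of all genes, which became 8 higher and 1 lower on log2(TPM + 1). Over all genes that scale gave 8843 higher and 2458 lower. There Braf was at 0.01 and Araf was higher at 0.28 (limma, adjusted p = 0.00502).

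Of 10 genes commonly read as output of ERK signaling, 5 were higher and 2 lower in KI than in Cre(-), beside 31.6% and 29.3% of all genes, and 6 were higher and 0 lower on log2(TPM + 1). Ccnd1, which encodes cyclin D1, rose from 94.8 ± 13.2 to 598.7 ± 177.9 TPM (log2 fold change 2.18 ± 0.18, edgeR adjusted p = 9.92e-08), Etv5, an ETS factor, from 8.13 ± 0.84 to 28.0 ± 6.0 (1.34 ± 0.20, 2.85e-05), and Phlda1 and Dusp4 were also higher. The feedback inhibitors of the Spry and Dusp families on the list did not move together. Spry4 (-0.86 ± 0.21, edgeR adjusted p = 0.00213) and Dusp6 (-0.58 ± 0.14, 0.00167) were lower in KI. Dusp4 was higher (0.84 ± 0.20, 0.002), and Spry2 was not called (0.065 ± 0.141, 0.709). The lower calls were lost on log2(TPM + 1), where Spry4 was at -0.26 (limma, adjusted p = 0.116) and Dusp6 at -0.10 (0.492). Etv5 was lower than in KI in HIF1a KO (-1.41 ± 0.20, adjusted p = 0.00275), HIF2a KO (-1.15 ± 0.21, 0.0215) and DKO (-1.46 ± 0.22, 0.00173), and Ccnd1 was lower in HIF1a KO (-0.81 ± 0.18, 0.0214) and DKO (-0.88 ± 0.20, 0.0115). Over the Ras and MAPK lists together, 32 of 75 genes tested were higher and 18 lower in KI than in Cre(-), beside 31.6% and 29.3% of all genes. These became 51 and 4 on log2(TPM + 1), where 8843 genes were higher and 2458 lower over all genes. In HIF1a KO against KI the same lists gave 1 higher and 2 lower, in HIF2a KO 0 and 1, and in DKO 4 and 4, of 75 tested. Over all genes the shares were 2.57% and 2.86%, 0.741% and 0.647%, and 6.53% and 6.19%.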

How the data were processed

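Whole-kidney RNA of 17 mice (5 groups, from the labels) was sequenced as stranded, single-end reads of 75 bases. The authors trimmed the reads (Trim Galore 0.6.6, cutadapt 2.5), aligned them (STAR 2.7.9a) and deposited expected counts per transcript from RSEM; TPM per transcript, scaled for length and library by the authors, came in a separate table. Their methods name hg38 for alignment and hg38 or GRCm38 for annotation, whereas the transcripts listed are mouse. Here transcripts were matched to GENCODE M21 (97.8% matched, holding 99.04% to 99.24% of each library) and summed per gene, and counts were rounded. Library totals were 16504419 to 24668827, and intervals and floors cover counting error only.

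Genes passing filterByExpr (minimum 10) were fitted over all 5 groups with TMM factors in edgeR 4.0.16 (quasi-likelihood test, Benjamini-Hochberg over 17011 genes, threshold 0.05), with DESeq2 1.42.0 and limma 3.58.1 as alternatives, in R 4.3.3. The code was tested on simulated data. Named genes were the members, their 3 nearest tested genes on each side, the 5 genes most like Diras2, every gene of the DIRAS partner and CAAX lists, up to 4 genes per direction of the other Ras and MAPK lists by size of change in KI against Cre(-), and Hif1a, Epas1 and Gpnmb as checks. Genes named outside this rule (further TFE3 targets, Rras, Rap1b, Hras, Nras, Rheb) were chosen after their values were seen, and some genes that the rule names are not reported here. The members and lists were chosen with earlier results of these data known. Each mouse gave 1 library, and libraries were numbered largely group by group, so order and group cannot be told apart.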

Additional observations from a re-analysis of the deposited data

Results flagged for a closer look

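In groups of 4 libraries, a library was marked when its gap to the nearest other exceeded Dixon's 95% critical value for its share of the range, and 3 of 147 gene and group pairs were, where chance marks about 1 in 20. Neither Diras1 nor Diras2 was among them. Rasl12 was at 7.22 CPM in Cre(-) replicate 3 against 10.0 to 10.6 in the other Cre(-) libraries. It was also at 23.5 CPM in HIF1a KO replicate 1, which had the fewest Diras2 reads of its group, against 32.6 to 34.2 in the others. Spred2 was at 44.3 CPM in Cre(-) replicate 4 against 47.6 to 48.2.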

How the results depend on the processing

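The calls of lower Diras2 in HIF1a KO and in DKO against KI held under every alternative run, 7 and 6 with a library left out and 8 others each, with log2 fold changes of -1.11 to -0.83 and -1.02 to -0.85 (highest adjusted p 0.0481 and 0.0316). For HIF2a KO the value was -0.54 to -0.80 with a library left out, past the threshold without KI replicate 1, and -0.66 with DESeq2, also past it. DKO against HIF1a KO turned sign without DKO replicate 1 (-0.017), without HIF1a KO replicate 1 (-0.039) and without KI replicate 2 and HIF1a KO replicate 1 together (-0.039, chosen after seeing the data), and ran up to 0.18 with others left out. On log2(TPM + 0.1) and log2(TPM + 1) the Diras2 change against Cre(-) was 11.00 and 8.10 in KI, 9.94 and 7.05 in HIF1a KO, 10.38 and 7.49 in HIF2a KO, and 10.14 and 7.25 in DKO, as a larger pseudocount shrinks a change from near 0. On the same scales signs turned in KI against Cre(-) for Epas1 (0.15 and 0.14), Zmpste24 (0.023 and 0.022), Icmt (0.23 and 0.22), Atp6v1h (0.13 and 0.12), Braf (0.009 and 0.008) and Araf (0.29 and 0.28), and without the count filter Gng7 in DKO against KI was 0.009. The Ras and MAPK list counts became 51 higher and 4 lower in KI against Cre(-) on both TPM scales. Against KI they became 2 higher in HIF1a KO and 7 lower in DKO with DESeq2, 0 higher and 1 lower in HIF1a KO, 0 lower in HIF2a KO and 1 lower in DKO with only the groups compared, 0 lower in HIF2a KO on log2(TPM + 0.1), and 0 higher in HIF1a KO with the replicate block. With a library left out they ran from 0 to 3 higher and 1 to 3 lower in HIF1a KO, 0 to 1 lower in HIF2a KO, and 2 to 6 higher and 1 to 5 lower in DKO. Over all genes, 438 were higher and 487 lower in HIF1a KO against KI, but 40 and 48 without KI replicate 2 and HIF1a KO replicate 1, 84 and 104 with only the groups compared, 237 and 242 with the replicate block, and 782 and 883 with DESeq2. In HIF2a KO the 126 and 110 became 1 and 1 with only the groups compared and 532 and 483 with DESeq2, and in DKO the 1111 and 1053 became 417 and 517 with only the groups compared. With a library left out the all-gene calls ran from 139 (without KI replicate 2) to 574 higher and 133 (without HIF1a KO replicate 3) to 595 lower in HIF1a KO, 7 and 6 (without KI replicate 3) to 462 and 395 (without KI replicate 1) in HIF2a KO, and 369 and 353 (without DKO replicate 2) to 1165 and 1126 (without KI replicate 1) in DKO. The cause was not tested. With the replicate number as a block the Diras2 change was -1.06 in HIF1a KO, -0.66 in HIF2a KO and -0.92 in DKO, and no Diras2 call changed. Deviations of the 31 same-numbered pairs correlated from -0.22 to 0.25, with 4 over 0.1, and 3 of 17 libraries correlated best with their own number, so the numbers do not pair the mice.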
